A study of Mus musculus with 2 samples.

Results

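The miR-148 and miR-152 family in the mouse comprises the 3 microRNA (miRNA) genes Mir148a, Mir148b and Mir152, which were measured in the embryonic stomach at 16.5 days. The members were taken by gene name from the 1973 genes of the count tables, and the rule itself uses no measured value. All 3 had sense reads and stood above 10 counts-per-million (CPM) in both libraries. The data held 1 group of 2 libraries, labelled as biological replicates, of RNA smaller than 30 nucleotides from stomachs of healthy B6NCrl embryos. Each library was a pool of male and female embryos, 41 in replicate 2 and an unstated number in replicate 1, and both carry the same donor label. The series holds no second tissue, age or treatment, so levels were compared between genes and between the 2 libraries.

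A miRNA gene is transcribed into a hairpin, from which a mature strand of about the length of the reads is cut and loaded into an Argonaute protein. The bases next to the 5′ end of that strand, the seed, pair with sites in messenger RNAs, which are then repressed. The miR-148 and miR-152 family is known for sites in transcripts of DNA methyltransferases, and miR-148a is known as an abundant miRNA of liver and pancreas and as one that is often reduced in gastric cancer. Mir148b and Mir152 lie inside Copz1 and Copz2, paralogous genes for the zeta subunits of the coat of vesicles that move between Golgi and endoplasmic reticulum.

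The sequences that define the family are its 3p arms, shown 5′ to 3′ with the seed, bases 2 to 8, in capitals. They come from RefSeq (GRCm38.p6), in which all 3 members were found.
miR-148a-3p: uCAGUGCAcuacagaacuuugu
miR-148b-3p: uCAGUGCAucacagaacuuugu
miR-152-3p: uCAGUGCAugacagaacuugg
The 3 arms carry the same seed, CAGUGCA, and a target would hold its complement, UGCACUG. Counted from base 1 of miR-148a-3p, miR-148b-3p differs by C9U and U10C. miR-152-3p differs from miR-148a-3p by C9U, U10G and U20G and is 21 bases long against 22. All the differences therefore lie outside the seed. Of 1738 mature sequences in the RefSeq table, these 3 arms alone held CAGUGCA at bases 2 to 8, a share of 0.173%. No mature sequence was found there under the names Mir122 or Mir145a, so other holders of a seed may be missing from it.

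The opposite arms, 5p, diverge more and are shown in the same way, because here the seed separates the members.
miR-148a-5p: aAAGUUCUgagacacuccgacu
miR-148b-5p: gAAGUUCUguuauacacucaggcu
miR-152-5p: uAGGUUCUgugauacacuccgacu
miR-148a-5p and miR-148b-5p share the seed AAGUUCU, while miR-152-5p has AGGUUCU. Aligned at base 1 without gaps, the 5p arms of Mir148a and Mir148b differed at 9 of 22 bases, against 2 of 22 for their 3p arms. The deposited counts belong to whole hairpin genes, so reads of the 5p and 3p arms were not told apart.

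The hairpins show how far the members can be separated by a read, and are given with the 3p arm in capitals.
Mir148a: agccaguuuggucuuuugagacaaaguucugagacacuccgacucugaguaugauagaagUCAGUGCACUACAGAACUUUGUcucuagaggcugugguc
Mir148b: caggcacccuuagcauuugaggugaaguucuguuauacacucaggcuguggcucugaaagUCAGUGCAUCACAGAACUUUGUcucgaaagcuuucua
Mir152: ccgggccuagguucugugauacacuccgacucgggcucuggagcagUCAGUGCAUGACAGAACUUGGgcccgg
The longest stretch that 2 members share is 15 bases, acagaacuuugucuc in Mir148a and Mir148b. Within the 3p arms it is 12 bases for that pair and 9 bases for either with Mir152. Against the 1004 other hairpins in the table, the longest stretch shared with a gene outside the family was 11 bases for Mir148a, 12 for Mir148b and 11 for Mir152 on the same strand. Against reverse complements the longest was 14 bases, between Mir148a and Mir148b, and for Mir152 it was 13 bases with Mir3473f. No mature sequence of a member was identical to that of another gene in the table, and the rest of the genome was not searched. This matters for the counts because reads placed in several positions, 25.1% of replicate 1 and 25.2% of replicate 2, form a total of their own in the tables.

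The members lie on 3 chromosomes (GRCm38, the assembly that mm10 names). Mir148a (ENSMUSG00000065505) is at chr6:51269812-51269910 on the minus strand, and no other annotated gene on that strand contains it. The nearest protein-coding gene on either strand, Nfe2l3, is 162760 bases away. Mir148b (ENSMUSG00000065560) is at chr15:103285125-103285221 on the plus strand, in intron 1 of 8 of Copz1. Mir152 (ENSMUSG00000065515) is at chr11:96850393-96850465 on the plus strand, in intron 1 of 8 of Copz2. The place within the host is thus the same by intron number, but intron 1 is 16159 bases long in Copz1 and 676 in Copz2. Mir148b begins 12215 bases from the start of its host transcript and Mir152 begins 517 bases from it. No exon of any annotated Copz1 or Copz2 transcript covers them. Of the 289 genes with an average of at least 10 CPM, 123 (42.6%) lie within the bounds of a protein-coding gene on their own strand. A place inside such a gene is thus common in the profile, but introns and exons were told apart only for Copz1 and Copz2. The messenger RNAs of Copz1 and Copz2 were not measured in these libraries.

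None of the members is part of a tight cluster of miRNA genes. The nearest other miRNA gene of the count tables was 351722 bases from Mir148a, 65234 from Mir148b and 213303 from Mir152, and each of these neighbours stood below 1 CPM. The nearest ones at 10 CPM or more were all miRNA genes of the Hox clusters: Mir196b at 960171 bases from Mir148a, Mir615 at 270124 from Mir148b and Mir10a at 533119 from Mir152.

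Depth was 7734578 sense-assigned reads in replicate 1 and 7983714 in replicate 2, which makes 3 counts, taken as the floor, equal to 0.388 and 0.376 CPM. Markers of epithelium in general were present, the 5 genes of the miR-200 family adding up to 50884 CPM in replicate 1 and 51089 in replicate 2. Intervals cover counting error only. Each read comes from 1 arm, so CPM was not divided by gene length, and a bias between miRNA sequences shared by both libraries is not covered by the SD.

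Mir148a, the member without a host gene on its strand, was the most abundant of the family. It had 10468 sense reads in replicate 1 and 9349 in replicate 2. As a level this was 1353 CPM (exact Clopper-Pearson 95% interval 1328 to 1380) and 1171 CPM (1147 to 1195), with a mean of 1262 ± 129 (SD, n = 2). The intervals do not overlap, so replicate 1 was the higher library on the CPM scale by more than counting error. On that scale the median log2 ratio of replicate 1 to replicate 2 over 289 genes was also above 0, at 0.21. Mir148a ranked 91 in replicate 1 and 87 in replicate 2 among 751 genes with a sense read. Genes that share a mature sequence with another gene may miss reads, so Mir148a may be placed too high among them. In a bulk tissue, fewer cells of a type and less RNA per cell cannot be told apart.

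Mir152, from the intron of Copz2, came next with 1621 and 1592 reads. Its level was 209.6 CPM (199.5 to 220.0) in replicate 1 and 199.4 CPM (189.7 to 209.4) in replicate 2, a mean of 204.5 ± 7.19 (SD, n = 2). These intervals overlap, and its rank was 163 in replicate 1 and 155 in replicate 2. Mir148b, from the intron of Copz1, was the lowest with 1312 and 1163 reads. Its level was 169.6 CPM (160.6 to 179.1) and 145.7 CPM (137.4 to 154.3), a mean of 157.7 ± 16.9, at ranks 172 and 170. As for Mir148a, the 2 intervals of Mir148b do not overlap. The median level of the 289 genes at 10 CPM or more was 309 CPM, above Mir152 and Mir148b and below Mir148a. Reads missing from genes that share a mature sequence may lower this median and favour the ranks of the members.

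**Figure D1:**
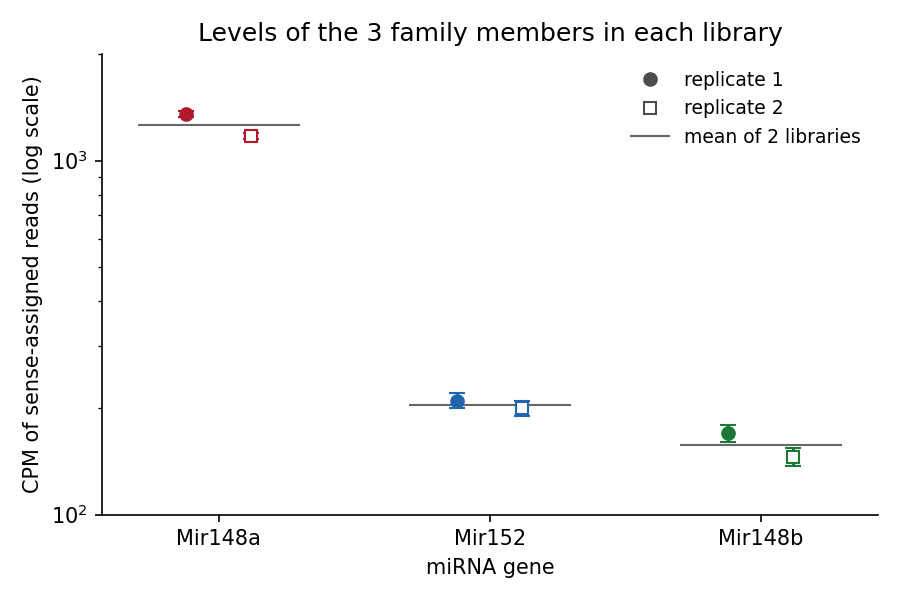
CPM of sense-assigned reads on a log axis for Mir148a, Mir152 and Mir148b, with filled circles for replicate 1, open squares for replicate 2, exact 95% counting intervals as bars and the mean as a line. Mir148a sits at 1353 and 1171 CPM, and both Mir152 values lie above both Mir148b values.

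The order of the members was the same in both libraries. Mir148a exceeded Mir148b 7.98-fold in replicate 1 (95% interval 7.53 to 8.46) and 8.04-fold in replicate 2 (7.56 to 8.55), a ratio within a library that needs no scaling. The 2 values differed by far less than their counting error, with a mean of 8.01 ± 0.0425 (SD, n = 2). Mir148a exceeded Mir152 6.46-fold (6.13 to 6.81) and 5.87-fold (5.57 to 6.20). Here the intervals overlap narrowly. The intronic members were closest to each other, Mir152 exceeding Mir148b 1.24-fold (1.15 to 1.33) in replicate 1 and 1.37-fold (1.27 to 1.48) in replicate 2. Both intervals lie above 1, and the lower Mir152 value, 199.4 CPM, was above the higher Mir148b value, 169.6 CPM. With 2 libraries, no permutation test of this order can reach a small p, and none was made.

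The family as a whole had 13401 reads in replicate 1 and 12104 in replicate 2, or 1733 and 1516 CPM. Mir148a supplied 78.1% of them in replicate 1 (95% interval 77.4% to 78.8%) and 77.2% in replicate 2 (76.5% to 78.0%). Mir152 supplied 12.1% (11.5% to 12.7%) and 13.2% (12.6% to 13.8%). Mir148b supplied 9.79% (9.29% to 10.3%) and 9.61% (9.09% to 10.1%). The make-up was thus close to the same in the 2 pools, and Mir152 had the largest shift of the 3, at 12.6% ± 0.747 (SD, n = 2). Since the 3 members carry 1 seed on the 3p arm, their sum is the quantity of that seed only if the reads are from 3p arms, which the tables do not show.

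**Figure D2:**
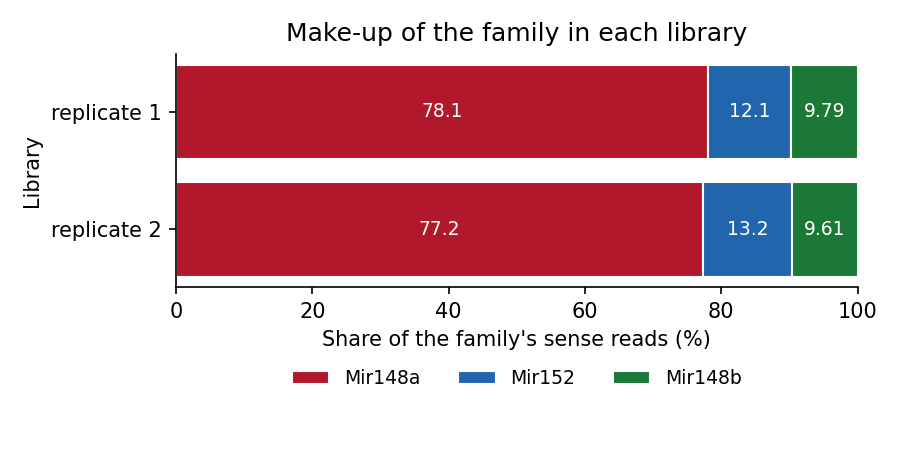
Share of the family's sense reads held by each member, in percent, as stacked bars for the 2 libraries. Mir148a fills 78.1% and 77.2% of the bars, and Mir152 is wider than Mir148b in both.

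The libraries were then compared for each member after scaling by trimmed mean of M values (TMM), which corrects for reads taken up by genes that differ strongly. The exact binomial test used compares the 2 libraries and not conditions. Mir148a had a log2 ratio of replicate 1 to replicate 2 of 0.027 (95% interval -0.014 to 0.067), with an adjusted p of 0.233 by the two-sided exact binomial test with Benjamini-Hochberg adjustment over 289 genes. Its fold was 1.02, and 269 of the 289 genes lay farther from a ratio of 1. Mir148b had a log2 ratio of 0.037 (-0.078 to 0.15) and an adjusted p of 0.564 in the same exact test. Mir152 had a log2 ratio of -0.11 (-0.21 to -0.0097), a fold of 0.926, and an adjusted p of 0.0413 in the same exact test, but its direction turned to 0.072 when the libraries were scaled by total sense-assigned reads.

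None of the 3 members passed the rule for a difference, an adjusted p under 0.05 and at least 2-fold, against 7.96% of the 289 genes tested, which is 23 genes. Without a minimum fold, Mir152 alone passed, against 76.1% of the genes; its unadjusted p of 0.0312 in the exact test was also the only one of the 3 under 0.05. Which members passed without a minimum fold turned with the scaling. Under total-read scaling Mir148a and Mir148b passed, at adjusted p of 6.97e-24 and 0.000236 in the exact test, and Mir152 did not, at 0.187. With TMM over all genes Mir148a alone passed, at 0.00184 in the exact test, against 0.199 for Mir152. The count of members past the 2-fold rule was 0 with DESeq2 size factors as well. Total-read scaling moved the median log2 ratio of the 289 genes from 0.02 to 0.21. Relative to that median, which takes the scaling out, Mir148a stood at 0.0026, Mir148b at 0.013 and Mir152 at -0.13. The median absolute log2 ratio was 0.037 for the 3 members and 0.24 for all 289 genes. The folds of the 3 members lay between 0.926 and 1.03, and 231 of the 289 genes (79.9%) lay within 1.5-fold, so closeness was common. Mir206, a marker of skeletal muscle, lay far outside that range, at 3184 CPM in replicate 1 and 99.8 in replicate 2.

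**Figure D3:**
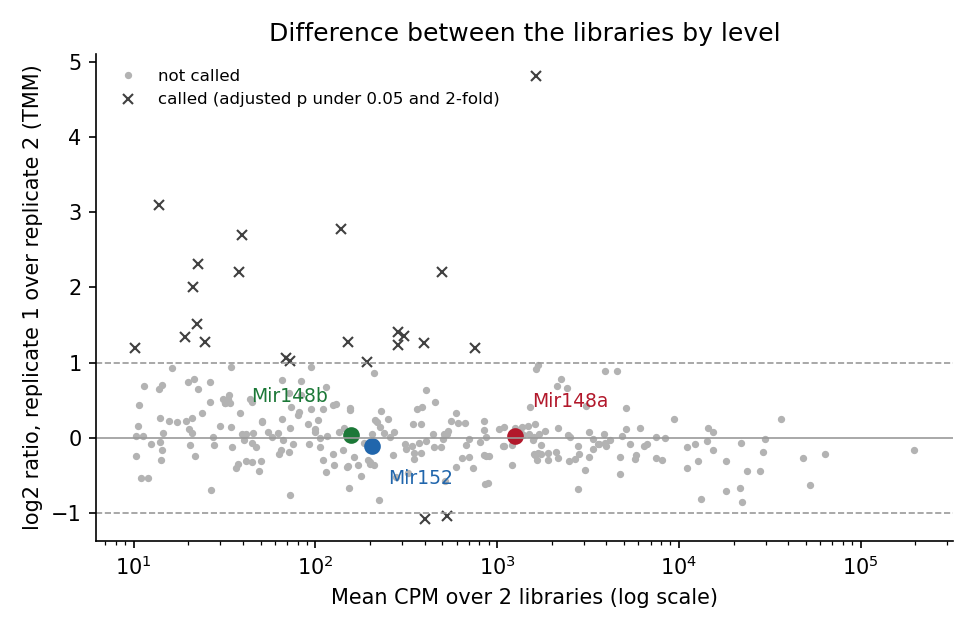
Log2 ratio of replicate 1 to replicate 2 after TMM scaling against mean CPM on a log axis, 1 point for each of 289 genes, crosses for the 23 genes called and dashed lines at 2-fold. The 3 members, in colour, lie near 0, Mir152 lowest at -0.11.

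Other miRNA genes hold part of the same seed, shifted by 1 base. The core AGUGCA occupies bases 3 to 8 in the miR-148 and miR-152 arms and bases 2 to 7 in the miR-130 and miR-301 family, of which miR-130a is known from vascular cells. Examples with the core in capitals show the shift.
miR-130a-3p: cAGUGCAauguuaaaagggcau
miR-301a-3p: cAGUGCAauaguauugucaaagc
Of the 5 genes listed for this family, Mir721 has no row in the tables, and the other 4 were all above 10 CPM. Mir130a stood at 22879 and 21062 CPM in replicates 1 and 2, Mir130b at 4203 and 3589, and Mir301 at 924 and 808. Mir301b was lowest at 49.3 and 41.3 CPM. Their sum, 26778 ± 1806 CPM (SD, n = 2), was 16.5 times that of the miR-148 and miR-152 family, a gap many times the SD of either. Mir148a thus ranked between Mir130b and Mir301. None of the 4 passed the 2-fold rule between libraries, and their median log2 ratio was 0.029, near that of all genes.

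**Figure D4:**
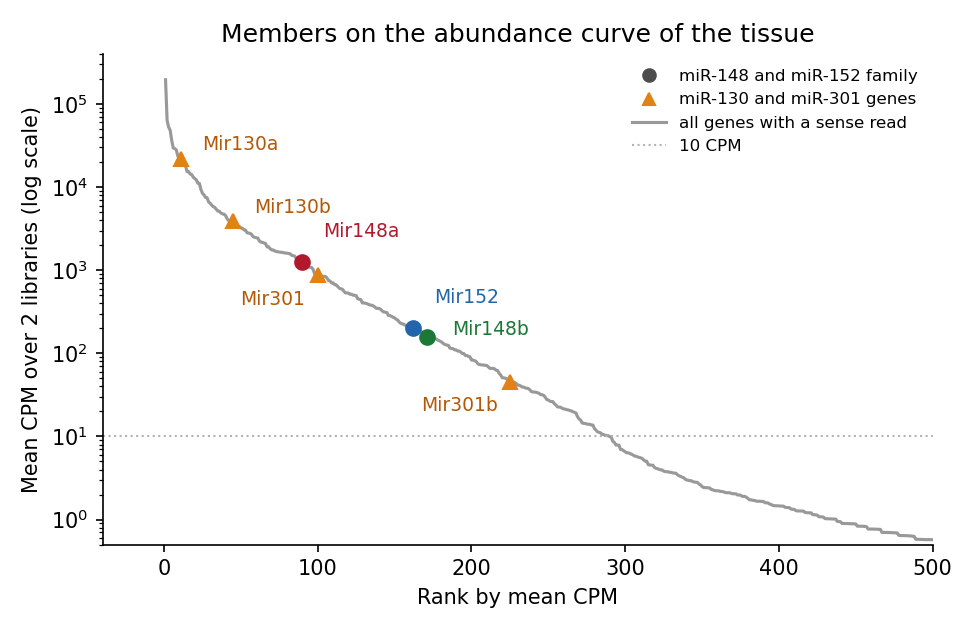
Mean CPM over 2 libraries on a log axis against rank for genes with a sense read, drawn to rank 500, with family members as circles and miR-130 and miR-301 genes as triangles. Mir148a lies at rank 90, Mir152 at 162 and Mir148b at 171, below Mir130a at 11 and Mir130b at 45. Genes that share a mature sequence with another gene may lie too low.

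The miR-29 genes, the other miRNAs best known for sites in DNA methyltransferase transcripts, were lower. Mir29a stood at 102.7 and 79.3 CPM and Mir29c at 62.1 and 63.4 CPM. Mir29b-1 and Mir29b-2 stood at 1.14 and 1.08 CPM on average, but they share an identical mature sequence, so reads placed in both may be missing. Their counted sum of 156 ± 14.8 CPM (SD, n = 2) was 0.0960 of the miR-148 and miR-152 sum, and close to Mir148b alone at 157.7 CPM. The 2 genes high enough to test did not pass the 2-fold rule.

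Among miRNA genes of gut epithelium, Mir192, Mir194-1, Mir194-2 and Mir215 summed to 3973 ± 281 CPM (SD, n = 2), 2.45 times the miR-148 and miR-152 family. Mir215 stood at 1732 and 1779 CPM, Mir192 at 1651 and 1306, and Mir194-2 at 531 and 472. Mir148a, at 1353 and 1171 CPM, was below Mir192 and above Mir194-2 in both libraries. None of the 4 genes of the list passed the 2-fold rule. Mir194-1 and Mir194-2 share an identical mature sequence, so the sum may miss reads. For the same reason the order of Mir148a and Mir194-2 is one of counted reads only.

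Markers of organs known for Mir148a were read beside it. Mir122 of hepatocytes stood at 1821 CPM in replicate 1 and 1210 in replicate 2, at a log2 ratio of 0.41 that did not pass the 2-fold rule. The 3 genes for exocrine pancreas, Mir216a, Mir216b and Mir217, were low and summed to 6.08 and 2.88 CPM. The part of liver cells in the level of Mir148a was not tested.

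Other families with copies in introns of paralogous genes gave a comparison for the Copz pair. In the miR-26 genes of the Ctdsp hosts, Mir26b held 99.7% and 99.9% of the counted reads in replicates 1 and 2. In the miR-103 and miR-107 genes of the Pank hosts, Mir107 held 95.4% in both. Mir218-2 held 72.4% and 73.1% of the miR-218 reads in the Slit hosts, and Mir128-1 held 73.0% and 81.7% of the miR-128 reads. In each of these 4 families 2 genes share an identical mature sequence, so the counted shares are uncertain. For miR-26 and miR-103 these are Mir26a-1 with Mir26a-2 and Mir103-1 with Mir103-2, while Mir26b and Mir107 share none. Reads missing from those pairs would raise the counted shares of Mir26b and Mir107. For miR-218 and miR-128 both genes share a mature sequence, so their shares may rest on the few reads placed in 1 position. Mir148b and Mir152 share no mature sequence with another gene of the RefSeq table, and copies elsewhere in the genome were not searched. Their ratio was 1.24 and 1.37. None of the tested genes of these families passed the 2-fold rule between libraries.

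**Figure D5:**
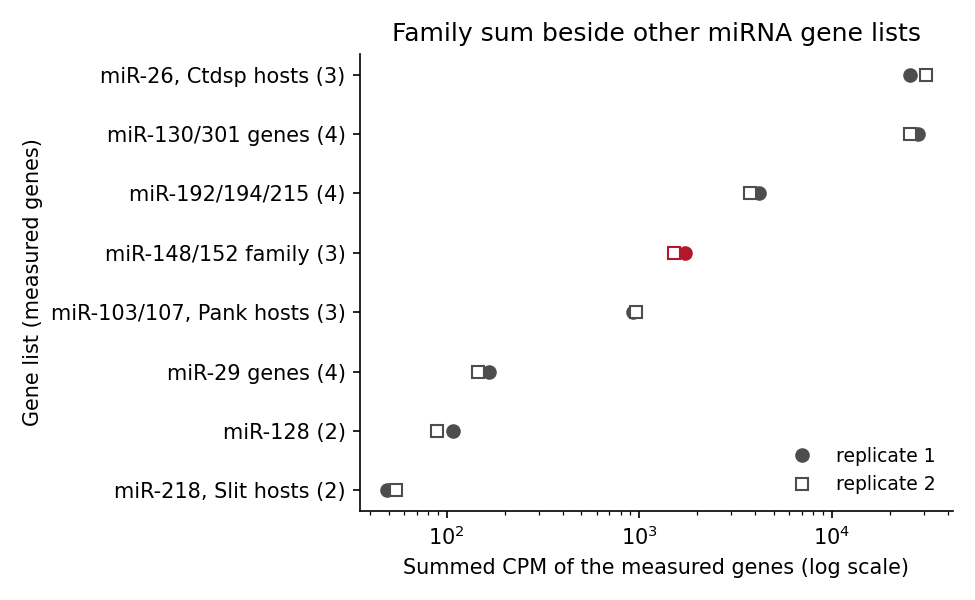
Summed CPM of each list on a log axis, filled circles for replicate 1 and open squares for replicate 2, with the number of measured genes in brackets. The miR-148 and miR-152 family, in red at 1733 and 1516 CPM, lies below the gut epithelial genes and above the miR-103 and miR-107 genes. Every list but this family and the miR-130 and miR-301 genes holds genes with an identical mature sequence, so those sums may miss reads.

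The genes most like each member in level were taken as the 3 with the smallest distance over the log2(CPM + 1) values of the 2 libraries. For Mir148a they were Mir154 of the imprinted Dlk1-Dio3 cluster at 1255 ± 149 CPM (SD, n = 2), Mir137, known from neurons, at 1262 ± 193 CPM, and Mir223 of myeloid leukocytes at 1203 ± 52.3 CPM. For Mir152 they were Mir450b at 205 ± 23.4 CPM, Mir700 at 200.5 ± 13.9 CPM and Mir187 at 194.1 ± 10.3 CPM. For Mir148b they were Mir1306, Mirlet7c-2 and Mir669c, between 145 and 163 CPM. These genes differ from the member by no more than the larger SD of each pair, except Mir187 against Mir152, so their order around it is not settled. The likeness rests on 2 libraries and is one of counted level only. Of the genes near the members, only Mir223 was looked up for a mature sequence shared with another gene, and none was found. The others, near all 3 members, were not looked up, so their counts may miss reads.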

How the data were processed

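Raw read counts for 1973 miRNA genes in each of 2 libraries were used as deposited. Per the labels and the texts deposited with each library, the authors aligned the reads to mm10 and counted them against GENCODE M4 genes. The tools for trimming, alignment and counting, not given in the sources used here, are unknown. The deposited tables give counts without regard to strand and on each strand, and the strand with the larger total was taken as sense. Totals that name no gene were left out. Reads placed in several positions form one of these totals, so gene counts are taken to hold uniquely placed reads, an inference.

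Symbols, coordinates and hosts came from GENCODE M21 (GRCm38), which matched 1894 identifiers, and sequences from RefSeq (GRCm38.p6). CPM (counts-per-million) has the sense-assigned reads as its total, and each mean and SD is over both libraries (n = 2). The labels call them biological replicates, but both carry 1 donor label, so spreads may be partly technical. Ratios used TMM in edgeR 4.0.16 (R 4.3.3) over genes with an average of at least 10 CPM, with 0.5 added to each count. These genes were tested by two-sided exact binomial tests with Benjamini-Hochberg adjustment, called at 0.05 and at least 2-fold. The test carries counting error only, while edgeR estimated a coefficient of variation of 0.294 between the libraries. DESeq2 1.42.0 gave alternative size factors, and RNAfold 2.7.2 predicted hairpin folds. Python 3.11.15, numpy 2.4.6, pandas 2.3.3, scipy 1.17.1 and matplotlib 3.10.9 were used. The test was checked on simulated data. That check held counting error only and does not cover variation between libraries. The rule for the members uses gene names alone, but the family and the lists were proposed with earlier results of these data known. Named genes were the members, the 3 genes nearest to each in level, holders of the seed and up to 3 genes of each list. Genes named outside this rule, chosen after their values were seen, were the genomic neighbours, the remaining list genes, Mir350 and Mir291b.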

Additional observations from a re-analysis of the deposited data

How the results depend on the processing

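Counting over all reads of a library, with unmapped and multiply placed reads in the total, moved the levels to 625.3 CPM for Mir148a, 101.4 for Mir152 and 78.1 for Mir148b, and the family share to 0.0805%, by construction. Leaving out each library in turn gave 1171 to 1353 CPM for Mir148a, 199.4 to 209.6 for Mir152 and 145.7 to 169.6 for Mir148b, a family share of 0.152% to 0.173%, and shares within the family of 77.2% to 78.1%, 12.1% to 13.2% and 9.61% to 9.79%; a single library has no spread. Counting without regard to strand moved each of these values by less than 1 SD. The log2 ratio between libraries reversed for Mir152, from -0.11 to 0.072, with total-read scaling, where the shift of all genes shows the cause. Mir148a and Mir148b kept their direction under all 6 alternatives, TMM over all genes among them, which was chosen after seeing the data.

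No alternative with the 2-fold minimum, or with 1.5-fold, called a member. The genes called higher and lower in replicate 1, 21 and 2 as reported, became 33 and 22 with all genes with a read, 111 and 109 with no minimum fold, and 44 and 14 at 1.5-fold. The lower count became 0 of 29 called with total-read scaling, and 1 with TMM over all genes. The adjusted p of the exact test was 0.0413 for Mir152, with 0.0243 to 0.199 under the alternatives, 0.233 for Mir148a, with 6.97e-24 to 0.475, and 0.564 for Mir148b, with 0.000236 to 0.706. The lowest values of Mir148a and Mir148b came with total-read scaling, at log2 ratios of 0.21 and 0.22, and TMM over all genes gave Mir148a 0.00184. Depth limits the members little, since each had at least 1163 reads in each library. No paired analysis was possible because the data hold 1 group.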

Other observations

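The predicted folds of the 3 hairpins differed in stability. RNAfold gave -43.5 kcal/mol for the Mir152 hairpin of 73 bases, -41 kcal/mol for Mir148a with 99 bases and -30.9 kcal/mol for Mir148b with 97 bases. Per base this was -0.596, -0.414 and -0.319 kcal/mol. The order by fold energy is therefore not the order by level, since Mir148a had the most reads. The Mir152 hairpin had a GC content of 61.6%, against 45.5% for Mir148a, 45.4% for Mir148b and a median of 51.7% over 1005 hairpins. In the predicted folds, 19 of 22 bases of miR-148a-3p, 17 of 22 of miR-148b-3p and 19 of 21 of miR-152-3p were paired.

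Only 2 further mature sequences of the table hold AGUGCA at bases 3 to 8, miR-350-5p and miR-291b-3p, both with another base than C at base 2. Mir350 stood at 839.6 CPM in replicate 1 and 160.1 in replicate 2, so it differed between the libraries far more than the family members did. Mir291b, of the pluripotency cluster, stood at 0.646 and 0.501 CPM. Of the 7 mature sequences with AGUGCAA at bases 2 to 8, those of Mir130c, Mir6341 and Mir6389 belong to genes with a row and no sense read in either library, which for reads placed in 1 position allows up to 0.388 and 0.376 CPM.

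Reads on the strand opposite to a member were 0 for Mir148a and Mir148b in both libraries. Mir152 had 0 in replicate 1 and 2 in replicate 2, below the floor of 3 counts.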
